A study of Mus musculus with 12 samples.

Results

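Fatty acid desaturases and elongases were followed in liver, in muscle (M. vastus lateralis) and in gonadal white adipose tissue (WAT) of female mice that lack the ghrelin receptor. The group holds the stearoyl-CoA desaturases Scd1, Scd2, Scd3 and Scd4, the front-end desaturases Fads1, Fads2 and Fads3, and the elongases Elovl1, Elovl2 and Elovl5. Its probe sets were those annotated with only 1 gene symbol, equal to a member, and 22 of the 45037 probe sets met this, for 9 of the 10 genes; Scd4 has no probe set in the annotation used here and is not reported. The mice were Ghsr knockouts on a C57bl/6 background, 12 weeks old, and all groups carried the deletion, so no array holds wild type RNA. They were killed 6 h after an intraperitoneal injection of unacylated ghrelin (UAG), the form of the peptide without its acyl chain, at 20 nmol/kg, or of saline. Each tissue has 2 UAG and 2 saline arrays (mouse Genome 430 2.0), 12 in all.

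Desaturases put a double bond into a fatty acid bound to coenzyme A, using electrons passed on by cytochrome b5 and its reductase, and elongases add carbon units to the carboxyl end. The Scd enzymes turn saturated acids into monounsaturated ones, which are the main acids of stored triglyceride and a usual readout of lipogenesis in fat and liver. Fads2 and Fads1 act in turn, with Elovl5 and Elovl2 between and after them, to make arachidonic and docosahexaenoic acid from dietary precursors, mostly in liver.

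Values are intensities, which were deposited on a log2 scale after normalization by the study's authors; intensities below 30, the threshold named in the methods, were set to 30 for means, ratios and tests, and single array values are printed as deposited. A gene's level is that of its brightest probe set over the 12 arrays unless another is named, and levels of different probe sets are not compared. A gene was called where the adjusted p of limma, a linear model with shared variance, was under 0.05, adjusted by the Benjamini-Hochberg method across every probe set in the fit. The methods give n = 2 for the mice of the arrays, and the titles number the arrays of a group. Nothing says whether a number is the same mouse in each tissue. The p-values measure the spread between the arrays of a group, part of which may be technical. In WAT the saline arrays also differed from each other in tissue makeup, as listed below. Between arrays of a tissue the correlation over probe sets was 0.925 to 0.962. Marker genes showed that the dissected tissues were mixed: in muscle the summed intensity of 5 adipocyte markers, Adipoq and Fabp4 among them, was 25740 to 40310, against 301.5 to 414.9 in liver, while the 7 skeletal muscle fibre markers summed to 89300 to 94140 in muscle. In WAT, saline replicate 1 stood apart in 7 brown adipocyte markers (summed intensity 20140, against 2016 to 4109 on the other 3 arrays) and in the 7 muscle fibre markers (3332, against 829.6 to 1548), with 612.8 for Ckm, the muscle creatine kinase, against 24.26 to 40.68. Saline replicate 2 stood apart in 6 smooth muscle markers (30980, against 6087 to 6974). UAG replicate 1 had the highest sum of 6 markers of epithelium or mesothelium (3800, against 2013 to 2218), mostly through Upk3b (2615, against 1140 to 1427). Msln and Krt19 were also highest on that array, while Krt8, Krt18 and Cdh1 were not.

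Most of the 9 measured genes fell into 3 tissue patterns. Fads1, Fads2, Elovl2 and Elovl5 were highest in liver, Scd2 and Fads3 were highest in WAT and lowest in liver, and Scd1 was at 5750 or more on every array and lowest in liver. Outside these patterns, Elovl1 was lowest in muscle, and Scd3 was close to the threshold in every tissue. In these whole tissues, fewer cells of a type and less RNA per cell cannot be told apart.

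**Figure D1:**
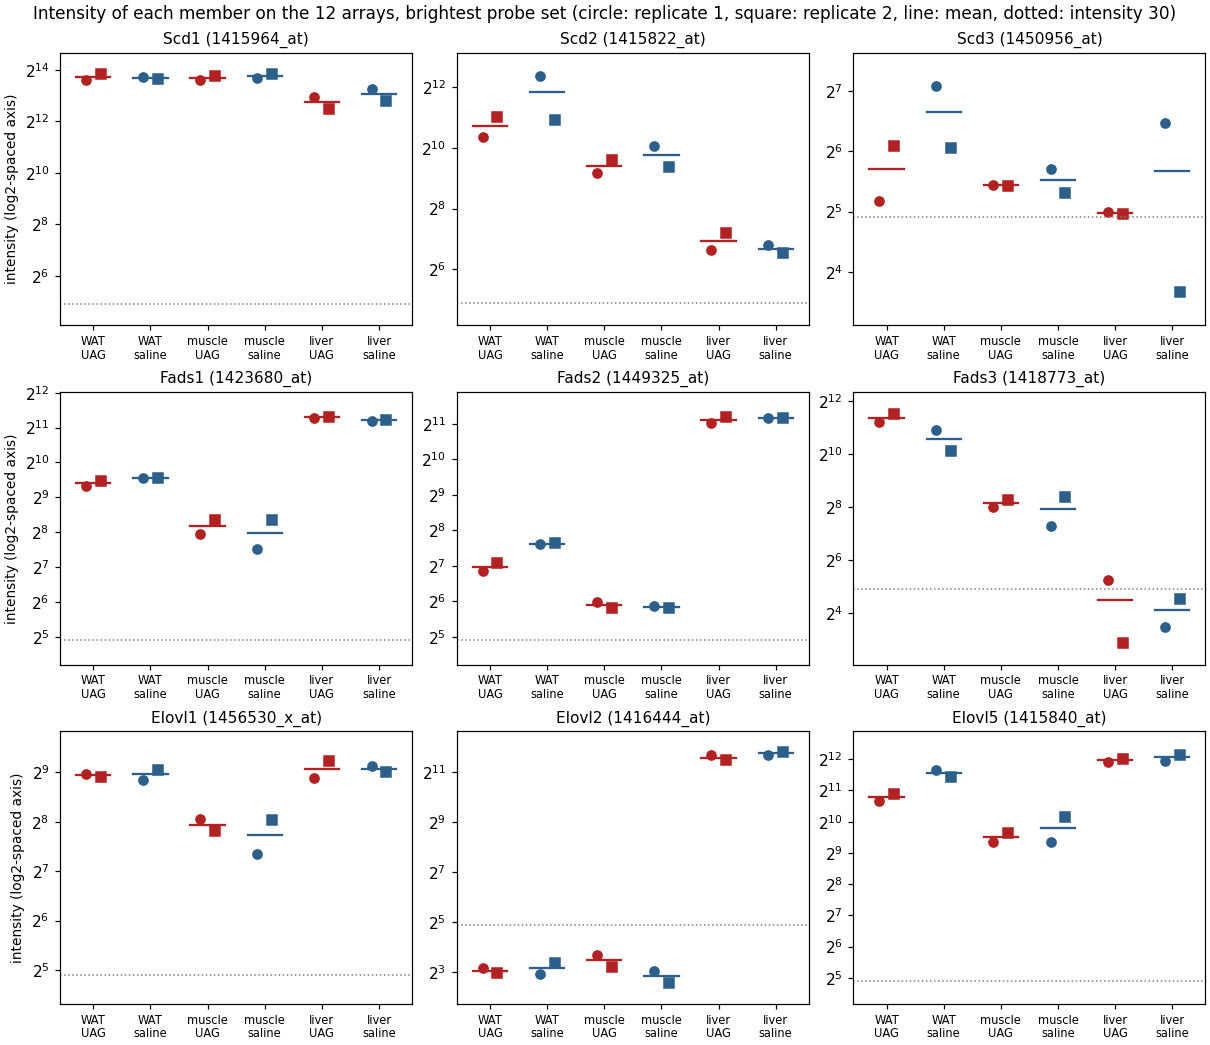
Intensity of the brightest probe set of each of the 9 genes on the 12 arrays, on a log2-spaced axis; each tissue has UAG (red) left of saline (blue), circles are replicate 1, squares replicate 2, horizontal lines the mean of 2 arrays and the dotted line the threshold of 30. Elovl2 lies between 2815 and 3510 in liver and below 30 elsewhere, and Fads3 between 1091 and 2924 in WAT.

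Among the Scd genes, Scd1, the main delta-9 desaturase of adult liver and fat, had 12420 and 14500 in UAG WAT and 13480 and 12850 in saline WAT. In muscle it had 12580 and 13760 with UAG and 13200 and 14580 with saline, and in liver 7864 and 5750 with UAG and 9869 and 7018 with saline. The WAT and muscle arrays overlapped each other and lay above all 4 liver arrays. Scd1 was higher in WAT than in liver by 0.83 on the log2 scale (SE 0.157, limma adjusted p = 0.00115, n = 4 arrays a tissue) and higher in muscle than in liver by 0.85 (SE 0.157, limma adjusted p = 0.000864), 1.78-fold and 1.81-fold. This probe set ranked 8 to 283 among the 45037 of its array, and the size of these differences depended on the probe set. The second, dimmer Scd1 probe set was 7.65-fold higher in WAT than in liver (log2 difference 2.93, SE 0.268, limma adjusted p = 5.85e-06) and 3.17-fold higher in muscle than in liver (log2 difference 1.67, SE 0.268, limma adjusted p = 0.00034). It also separated WAT from muscle: it averaged 9857 ± 2163 in WAT and 4208 ± 1590 in muscle (SD, n = 4 each), a log2 difference of 1.27 (SE 0.268, limma adjusted p = 0.00295), where the brightest gave -0.02 (SE 0.157, limma adjusted p = 0.958). The 2 probe sets of Scd1 thus disagree on a difference between WAT and muscle. Scd2, the family member known from brain and from adipocytes in culture, averaged 2658 ± 1790 in WAT and 774.4 ± 211.2 in muscle, against 112.5 ± 23.5 in liver (SD, n = 4 each), and on this probe set no tissue overlapped another. Its level was 20.8-fold higher in WAT than in liver (log2 difference 4.38, SE 0.302, limma adjusted p = 6.29e-07), and 3.05-fold higher in WAT than in muscle (log2 difference 1.61, SE 0.302, limma adjusted p = 0.00143). The other 2 Scd2 probe sets overlapped between WAT and muscle, where one was called (log2 difference 1.44, limma adjusted p = 0.00616) and the dimmest was not (1.14, limma adjusted p = 0.0612), and both were called higher in WAT and in muscle than in liver. Scd3, the desaturase of sebaceous and related glands, spanned 36.1 to 135.5 in WAT and 39.4 to 52.3 in muscle. In liver it spanned 12.7 to 89.02, and its second probe set was below 30 on all 12 arrays. No tissue difference of Scd3 passed the test.

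The front-end desaturases split by tissue. Fads1, the delta-5 desaturase, had 2489 and 2548 in UAG liver and 2322 and 2396 in saline liver, and averaged 714.1 ± 52.4 in WAT and 271.1 ± 67.2 in muscle (SD, n = 4 each). It was 3.42-fold lower in WAT (log2 difference -1.77, SE 0.159, limma adjusted p = 5.12e-06) and 9.22-fold lower in muscle than in liver (log2 difference -3.21, SE 0.159, limma adjusted p = 3.87e-08). Fads2, the delta-6 desaturase that opens the route to arachidonic acid, averaged 161.5 ± 42.0 in WAT and 58.3 ± 3.2 in muscle, against a liver mean of 2261 ± 113 (SD, n = 4 each). Its difference was 14.4-fold between WAT and liver (log2 -3.84, SE 0.098, limma adjusted p = 1.99e-10) and 38.8-fold between muscle and liver (log2 -5.28, SE 0.098, limma adjusted p = 1.43e-11), lower outside liver both times. Fads3, a relative that in mammals acts on sphingoid bases and on vaccenic acid, ran the other way. It had 2369 and 2924 in UAG WAT and 1935 and 1091 in saline WAT, 255.9 and 309.5 in UAG muscle and 157.7 and 333.4 in saline muscle, and 38.2 and 7.33 in UAG liver and 11.04 and 23.5 in saline liver. Only 1 of 4 liver arrays passed the threshold. With the others set to 30, Fads3 was 61.4-fold higher in WAT than in liver (log2 5.94, SE 0.245, limma adjusted p = 9.86e-09) and 7.7-fold higher in WAT than in muscle (log2 2.94, SE 0.245, limma adjusted p = 7.49e-06). All 3 Fads3 probe sets were called higher in WAT than in muscle and in liver.

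Among the elongases, Elovl2, which lengthens polyunsaturated acids of 20 and more carbons on the way to docosahexaenoic acid, had 3243 and 2815 in UAG liver and 3316 and 3510 in saline liver. On the 8 other arrays it was below 30, between 5.998 and 13.03, so WAT and muscle were each at least 107-fold lower than liver (log2 -6.74 against the threshold, SE 0.112, limma adjusted p = 6.57e-12 in WAT and 6.19e-12 in muscle). Elovl5, which lengthens the products of Fads2, was measured on all arrays, with 1618 to 3217 in WAT and 648.1 to 1138 in muscle, all below the 3807 to 4533 of liver. WAT and muscle did not overlap either. The log2 difference was -0.85 for WAT against liver (SE 0.165, limma adjusted p = 0.00139) and -2.39 for muscle against liver (SE 0.165, limma adjusted p = 5.43e-07). The second Elovl5 probe set overlapped between WAT (1455 to 3163) and liver (2979 to 3360). It was still called lower in WAT (log2 difference -0.63, SE 0.176, limma adjusted p = 0.0116). Elovl1, which makes very long saturated and monounsaturated acids for sphingolipids, had 462.9 to 531.5 in WAT and 162.3 to 266.2 in muscle, and 472.5 to 601.8 on the liver arrays. Its log2 difference was -1.24 for muscle against liver (SE 0.155, limma adjusted p = 4.99e-05) and -0.11 for WAT against liver (95% interval -0.46 to 0.23, limma adjusted p = 0.56). A dimmer Elovl1 probe set was called lower in WAT than in liver, by a log2 difference of -0.40 (SE 0.12, limma adjusted p = 0.0162). The call thus depends on the probe set, while the direction was the same and the interval of the brightest holds -0.40.

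**Figure D2:**
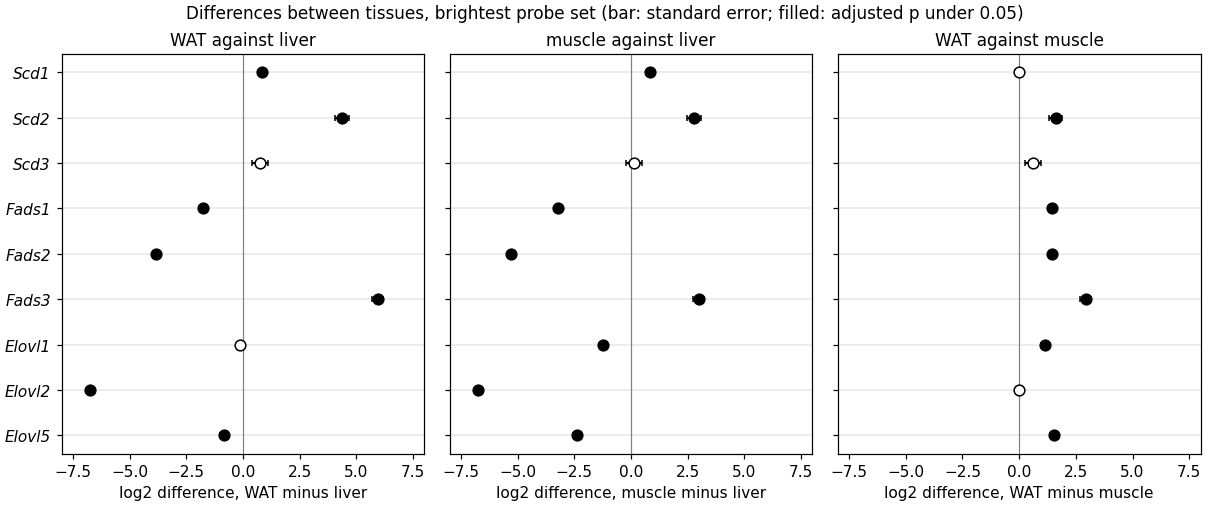
Log2 differences of the 9 genes between tissues (first tissue minus second), brightest probe set, each the mean over UAG and saline arrays; bars are the standard error of the fit to 12 arrays and filled points have a limma adjusted p under 0.05. Fads2 and Elovl2 lie far to the left and Fads3 and Scd2 far to the right where liver is subtracted, and all filled points lie right of 0 where muscle is subtracted from WAT.

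By count, 3 of 9 genes were called higher in WAT than in liver (33.4% of all genes tested were) and 4 lower (26.1% of all genes). In muscle against liver, 3 were called higher (32.8% of all genes) and 5 lower (29.5% of all genes). In WAT against muscle, 6 were called higher (30.6% of all genes) and 0 lower (21.3% of all genes; 0 of the 9 also had an unadjusted limma p under 0.05 in that direction). The median log2 difference of the 9 genes was 1.43 in WAT against muscle, beside 0.07 over all genes, and -1.24 in muscle against liver, beside 0.02 over all genes. Elovl2 passed the filter on dim probe sets through liver alone, and below 30 in WAT and muscle it has no difference between them. Muscle values of the fat-rich genes stand beside the adipocyte markers given above for the same arrays, whose part in the muscle levels was not tested.

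For UAG against saline within a tissue, the question was which enzymes of the route differ 6 h after the peptide in mice without the receptor of acylated ghrelin. In WAT, Elovl5 and Fads2 were lower on both UAG arrays than on both saline arrays, Fads3 was higher on both, and the Scd genes differed by probe set or followed 1 saline array. No member passed the limma threshold in any tissue: 0 of 8 tested genes were called in WAT (0% of 11981 genes were), 0 of 8 in muscle (0% of 11894) and 0 of 8 in liver (0% of 11850). At an unadjusted limma p under 0.05 there were 3 of 8 members in WAT (7.12% of all genes), 0 in muscle (1.85%) and 0 in liver (3.38%). Groups that did not overlap were found in WAT for 1 higher (24% of all genes) and 3 lower members (14.3% of all genes), in muscle for 0 in either direction (11.9% of all genes higher and 9.83% lower), and in liver for 1 higher (15.3% of all genes) and 1 lower (14.5% of all genes). The median log2 difference of the 8 members was -0.40 in WAT, beside 0.03 over all genes; in muscle it was -0.005, beside 0.01, and in liver -0.07, beside 0.007.

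**Figure D3:**
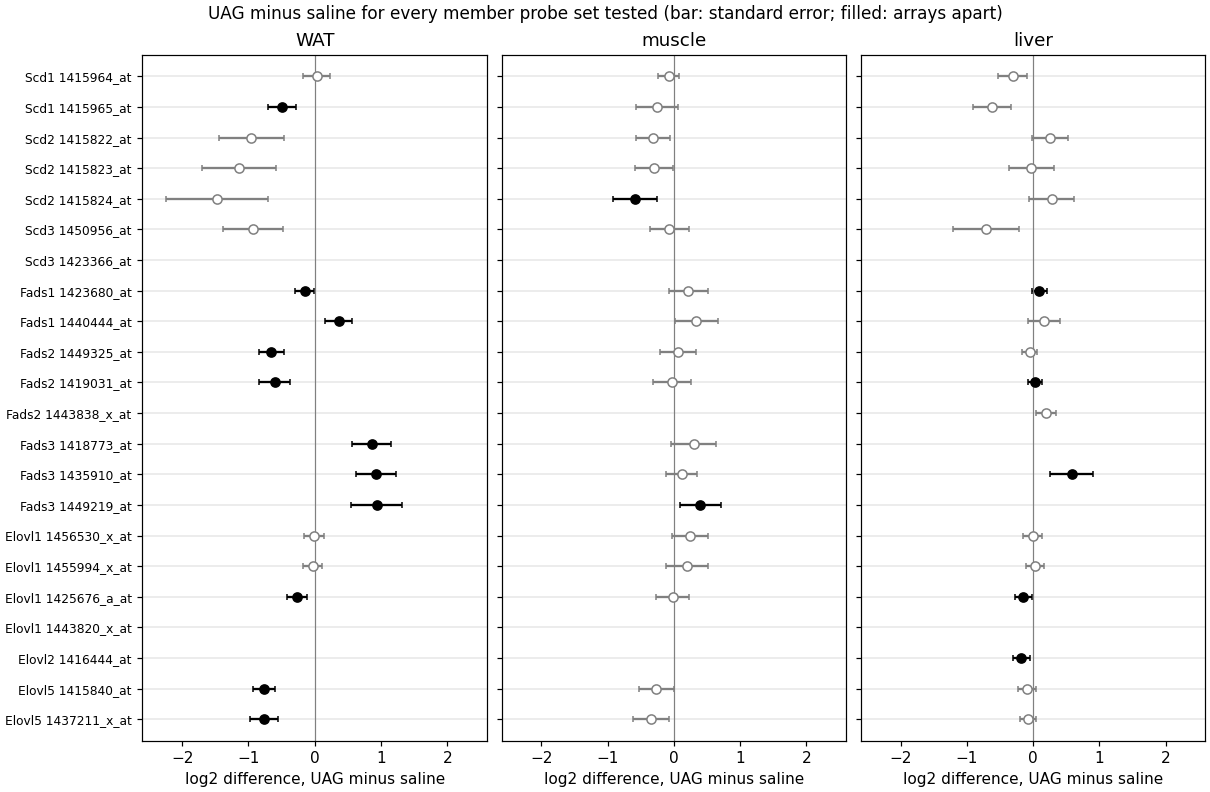
Log2 difference of UAG minus saline for each member probe set that passed the filter in that tissue, after setting intensities below 30 to 30; bars are standard errors of the limma fit to 4 arrays, and filled points mark probe sets whose 2 UAG arrays do not overlap the 2 saline arrays. In WAT the 2 Elovl5 probe sets lie at -0.76 and the 3 Fads3 probe sets between 0.86 and 0.93, and the points of muscle and liver lie between -0.71 and 0.58.

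Elovl5 had 1618 and 1896 in UAG WAT, against 3217 and 2754 in saline WAT. Both UAG arrays lay below both saline arrays, with means of 1757 ± 197 with UAG and 2985 ± 328 with saline (SD, n = 2 each). The ratio of means was 0.589 and the log2 difference -0.76 (SE 0.172, 95% interval -1.19 to -0.34, limma adjusted p = 0.624). The second probe set gave the same log2 difference, -0.76 (SE 0.21, limma adjusted p = 0.644), with 1455 and 1737 in UAG WAT and 3163 and 2305 in saline WAT. Without saline replicate 1, the array with the brown adipocyte and muscle fibre signal, the Elovl5 difference was -0.65, and without saline replicate 2, the array with the smooth muscle signal, -0.88. The stretch of 250 bases before the Elovl5 start site is shown because Elovl5 has the lowest adjusted p of these genes in WAT, and it holds 3 matches to the motifs searched. Capitals mark CACGTG, an E-box of the kind that SREBP-1 and ChREBP can bind, and CCAAT on either strand (printed as ATTGG where it is on the other strand), the box of NF-Y. It is the plus strand of chr9:77917115-77917364 of GRCm38.p6, from RefSeq.
Elovl5: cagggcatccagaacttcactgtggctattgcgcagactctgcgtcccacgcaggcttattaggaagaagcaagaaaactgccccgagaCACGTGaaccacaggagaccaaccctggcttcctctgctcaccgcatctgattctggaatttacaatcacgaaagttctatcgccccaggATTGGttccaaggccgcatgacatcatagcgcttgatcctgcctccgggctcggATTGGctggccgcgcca
Of 32851 RefSeq mouse promoters of this length, 6.02% hold CACGTG and 33.8% hold CCAAT on either strand. Such matches are a description of the letters and do not show binding.

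Fads2 had 116.6 and 134.8 in UAG WAT, against 194.1 and 200.3 in saline WAT. The UAG arrays were lower with no overlap, at means of 125.7 ± 12.9 with UAG and 197.2 ± 4.4 with saline (SD, n = 2 each), a log2 difference of -0.65 (SE 0.183, 95% interval -1.11 to -0.20, limma adjusted p = 0.644). A second probe set had 100.8 and 80.6 in UAG WAT and 120.9 and 155.7 in saline WAT, a log2 difference of -0.61 (SE 0.235, limma adjusted p = 0.731). The third was below 30 on both UAG arrays and at 37.7 and 37.5 on the saline arrays, and failed the filter. Fads1, which follows Fads2 in the route, had 639.9 and 714.6 in UAG WAT and 755.2 and 746.6 in saline WAT, a log2 difference of -0.15 (SE 0.144, limma adjusted p = 0.865). Its 2 probe sets disagree, since the dimmer was higher with UAG, at 95.2 and 102.1, against 71.7 and 82.3 with saline (log2 difference 0.36, SE 0.205, limma adjusted p = 0.791).

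Fads3 was the only measured gene of the group whose brightest probe set was higher on both UAG arrays of WAT. With 2369 and 2924 in UAG WAT and 1935 and 1091 in saline WAT, its means were 2647 ± 392 with UAG and 1513 ± 597 with saline (SD, n = 2 each), a ratio of 1.75 and a log2 difference of 0.86 (SE 0.296, 95% interval 0.13 to 1.59, limma adjusted p = 0.706). The other 2 probe sets were also higher without overlap, by 0.93 each (SE 0.303 and 0.382). The lowest Fads3 value in WAT, 1091, was on saline replicate 2, the array whose smooth muscle markers summed to 30980, and without it the log2 difference was 0.44. The 5 adipocyte markers all had a higher mean with UAG in WAT. They summed to 52290 and 56840 with UAG and 51440 and 47510 with saline, without overlap and lowest on saline replicate 2. Lep had 2762 and 3283 with UAG and 1495 and 391.7 with saline. Cidec was apart too, while Adipoq, Fabp4 and Retn overlapped. The part of smooth muscle or of adipocytes in the Fads3 value was not tested. Fads3, Fads2 and Fads1 lie next to each other on chromosome 19 with 0 other protein-coding genes between them in RefSeq. The 250 bases before the start sites of Fads2 and Fads3 are shown because these neighbours differed in opposite directions in WAT and have opposite tissue patterns. Fads2 is the minus strand of chr19:10101504-10101753 and Fads3 the plus strand of chr19:10041298-10041547 of GRCm38.p6, from RefSeq; capitals mark CCAAT on either strand.
Fads2: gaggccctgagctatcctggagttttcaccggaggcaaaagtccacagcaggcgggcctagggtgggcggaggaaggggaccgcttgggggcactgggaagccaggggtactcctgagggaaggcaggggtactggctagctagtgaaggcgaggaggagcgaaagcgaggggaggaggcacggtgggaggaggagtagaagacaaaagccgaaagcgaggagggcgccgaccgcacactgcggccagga
Fads3: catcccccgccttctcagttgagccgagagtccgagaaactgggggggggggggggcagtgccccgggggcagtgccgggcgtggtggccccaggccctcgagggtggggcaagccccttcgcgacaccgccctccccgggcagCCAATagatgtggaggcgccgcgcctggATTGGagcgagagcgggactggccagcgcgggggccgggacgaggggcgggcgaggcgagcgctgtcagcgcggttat
The Fads3 stretch holds 2 CCAAT matches, and the Fads2 stretch holds none of the 4 motifs that were searched for on both strands. The first pair of motifs is the E-box and the NF-Y box given for Elovl5. The third is TCACNCCA, the core of a sterol regulatory element, which 3.67% of all promoters of this length hold. The last is AGGTCA, a half-site of nuclear receptors, which 14% of them hold. The table used has promoters for 7 of the 10 members, and Scd1, Scd2 and Fads1 are not among them.

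Scd2 met the 2-fold rule of the study in WAT, the only member to do so (2.46% of all genes did). It had 1322 and 2068 in UAG WAT and 5297 and 1945 in saline WAT, a ratio of means of 0.468 and a log2 difference of -0.96 (SE 0.488, limma adjusted p = 0.769). The higher UAG array lay above the lower saline array, so the groups overlap, and the highest value is that of saline replicate 1. The other 2 Scd2 probe sets repeat this, with ratios of 0.4 and 0.31 and their highest value, 1929 and 727, on the same array. That array also had 6772 for Ucp1, the uncoupling protein of brown fat, against 503 to 1677 on the other WAT arrays, besides its muscle fibre signal, and the log2 difference without it was -0.24. Scd3 showed the same order, with 36.1 and 68.0 in UAG WAT and 135.5 and 66.3 in saline WAT. The brightest Scd1 probe set differed by 0.03 (SE 0.207, limma adjusted p = 0.983), while the second was lower with no overlap, at 7291 and 9113 with UAG and 12350 and 10670 with saline, a log2 difference of -0.49 (SE 0.215, limma adjusted p = 0.751). Elovl1 differed by -0.01 (95% interval -0.39 to 0.36), and Elovl2 was below 30 on all 4 WAT arrays. A dimmer Elovl1 probe set was lower with no overlap, at 326.8 and 364.3 with UAG and 405.5 and 422.1 with saline. Its log2 difference was -0.26 (SE 0.151, limma adjusted p = 0.793). The part of brown adipocytes or of muscle fibres in the Scd2 and Scd3 values was not tested.

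**Figure D4:**
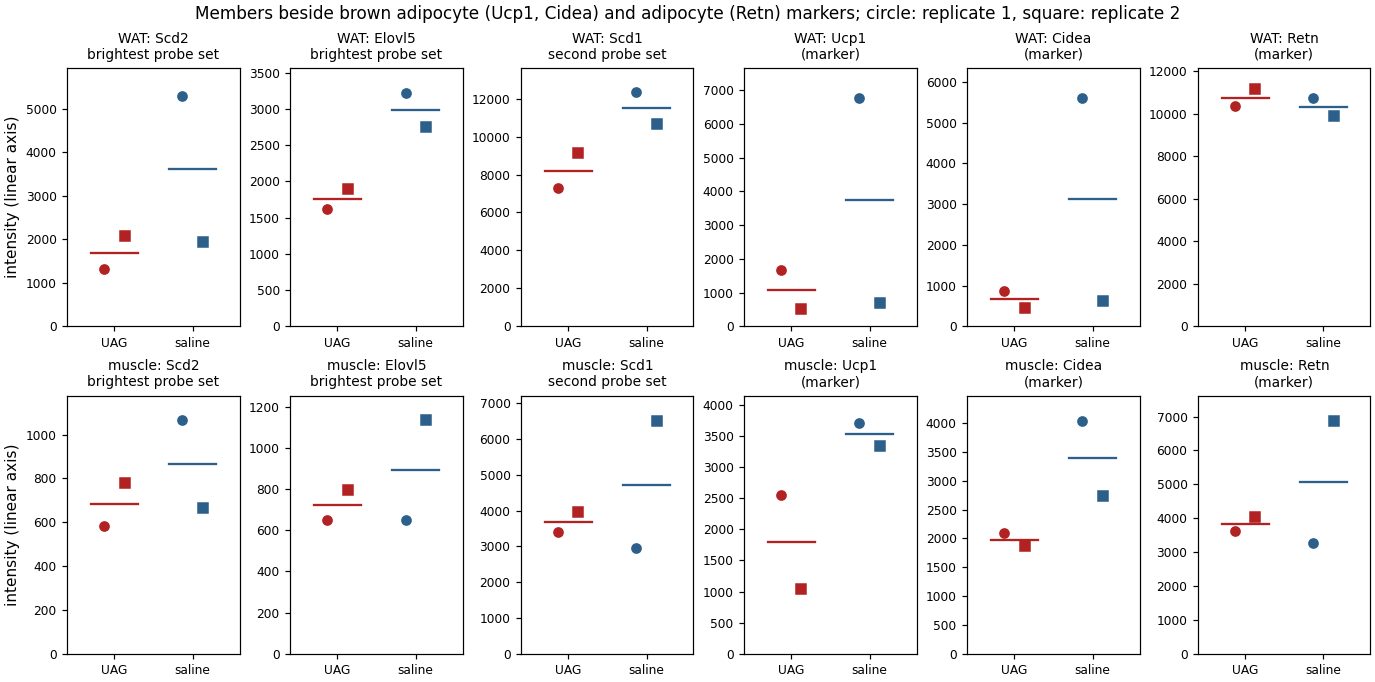
Intensity on the 4 WAT arrays (upper row) and 4 muscle arrays (lower row) of Scd2, Elovl5 and the second Scd1 probe set beside the brown adipocyte markers Ucp1 and Cidea and the adipocyte marker Retn, on linear axes from 0; circles are replicate 1, squares replicate 2, lines the mean of 2 arrays. In WAT, Scd2, Ucp1 and Cidea share their highest array (saline replicate 1), while Elovl5 is above both UAG arrays on both saline arrays; in muscle, Elovl5, this Scd1 probe set and Retn share theirs (saline replicate 2).

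In muscle no brightest probe set kept the UAG arrays apart from the saline arrays, and 0 of 8 members met the 2-fold rule (0.639% of all genes did). The dimmest Scd2 probe set was lower without overlap, at 82.69 and 71.67 with UAG and 156.7 and 85.02 with saline. The dimmest Fads3 probe set was higher without overlap, at 105.8 and 102.9 with UAG and 63.04 and 99.1 with saline. Neither passed limma. Elovl5 had 648.1 and 794.2 in UAG muscle and 652.6 and 1138 in saline muscle, a log2 difference of -0.26 (SE 0.266, 95% interval -0.87 to 0.34, limma adjusted p = 1). Its saline arrays lay further apart than its group means. The same held for Fads1, with 249.6 and 325.1 with UAG and 185.3 and 324.2 with saline, for Fads3, with 157.7 and 333.4 with saline, and for Elovl1, with 162.3 and 263.9 with saline. In each of these genes saline replicate 1 had the lower value of the saline pair, and that array also had the lowest adipocyte marker sum in muscle, 25740, against 40310 on saline replicate 2. The same 2 arrays were further apart in the sum of the 6 markers of epithelium or mesothelium, at 109.7 on saline replicate 1 and 2877 on saline replicate 2, with 540.6 and 724.8 on the UAG arrays. Of these markers, Msln and Upk3b were below the threshold on all 4 muscle arrays and took the other order on the saline pair. The part of these cells in the members' values was not tested. Scd2 took the other order, with 582.4 and 781.5 in UAG muscle and 1067 and 667.1 in saline muscle. Ucp1 was also above the threshold in muscle, at 2558 and 1043 with UAG and 3713 and 3348 with saline. The sum of the 7 brown adipocyte markers overlapped there, at 19800 and 14810 with UAG and 22460 and 18600 with saline. Its largest term was Cox8b, at 10590 and 8051 with UAG and 10120 and 8558 with saline. Cox8b, Cox7a1 and Ppargc1a overlapped. Ucp1, Cidea, Elovl3 and Dio2 were lower on both UAG arrays without overlap, with 2093 and 1867 for Cidea, against 4040 and 2739. The part of brown adipocytes in the muscle values of the members and of other genes was not tested. Leaving out a saline array turned the sign for 6 of the 8 muscle differences, as the closing section lists. Fads2 stayed between 55.7 and 62.8 on all 4 arrays.

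In liver the enzymes of the polyunsaturated route were high and close together between treatments. Fads2 averaged 2222 ± 179 with UAG and 2299 ± 15 with saline (SD, n = 2 each), a log2 difference of -0.05 (95% interval -0.32 to 0.22, limma adjusted p = 1). Fads1 was higher on both UAG arrays, at 2489 and 2548, against 2322 and 2396 with saline, by 0.09 on the log2 scale (95% interval -0.16 to 0.35). Elovl2 was lower on both UAG arrays, at 3243 and 2815, against 3316 and 3510 with saline, a log2 difference of -0.18 (95% interval -0.47 to 0.12). These were differences of 6.76% and 11.3% of the saline mean. Elovl5 differed by -0.09 (95% interval -0.41 to 0.22). Scd1 had 7864 and 5750 in UAG liver and 9869 and 7018 in saline liver, overlapping, with a log2 difference of -0.31 (SE 0.222, limma adjusted p = 1), and its second probe set gave -0.62 (SE 0.282, limma adjusted p = 1). The brightest Fads3 probe set failed the filter in liver, and a dimmer one was higher on both UAG arrays, at 46.1 and 52.61, against 24.26 and 35.99 with saline (log2 difference 0.58, SE 0.325, limma adjusted p = 1). No liver member met the 2-fold rule (0.608% of all genes did).

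The difference of the UAG effect between tissues was tested in a fit to all 12 arrays, which takes the tissues as independent. For Fads2 the UAG effect in WAT minus that in muscle was -0.72 (SE 0.196, limma adjusted p = 1) and in WAT minus liver -0.60 (SE 0.196, limma adjusted p = 0.762). For Elovl5 the effect in WAT minus liver was -0.67 (SE 0.331, limma adjusted p = 0.963), and for Fads3 it was 0.68 (SE 0.489, limma adjusted p = 0.978). None of the 9 genes was called for a difference between tissues (0% of all genes in WAT minus liver and in muscle minus liver, 0.00731% in WAT minus muscle), and 0 of 9 for the mean UAG effect over the 3 tissues (0.0292% of all genes). At an unadjusted limma p under 0.05 there was 1 of 9 for WAT minus liver (5.04% of all genes) and 0 for muscle minus liver (2.96%). There was 1 for WAT minus muscle (3.89%) and 2 for the mean effect (5.55%). That mean effect was -0.37 for Elovl5 (SE 0.135, limma adjusted p = 0.796), -0.21 for Fads2 (SE 0.08, limma adjusted p = 0.81) and 0.44 for Fads3 (SE 0.2, limma adjusted p = 0.882). The Fads3 mean includes the liver term at the threshold, and the dimmer probe set gave 0.54 (SE 0.156, limma adjusted p = 0.664). With 2 arrays a group the members' differences in WAT were thus not shown to differ from those in the other tissues.

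The rest of the route was read from 7 lists of 50 genes, of which 40 were tested on the WAT arrays, 42 on those of muscle and 41 on those of liver. None passed limma for UAG in any tissue. In WAT all 8 genes of fatty acid synthesis were lower with UAG, with a median log2 difference of -0.75 (0.03 over all genes), and 3 of them met the 2-fold rule (2.46% of all genes did): Acly, which makes cytosolic acetyl-CoA, Acss2, which makes it from acetate, and Me1, which makes NADPH. Acly had 2778 and 4461 in UAG WAT and 11005 and 4414 in saline WAT. Acss2 had 1367 and 1733 in UAG WAT and 5770 and 1627 in saline WAT. In both the groups overlapped and the high value was that of saline replicate 1 alone. Me1 did not overlap, with 3706 and 4723 in UAG WAT and 12549 and 5677 in saline WAT, and was also highest on saline replicate 1. Acacb, Mcat and Oxsm overlapped too, while Acaca and Fasn did not. All 8 genes were highest on saline replicate 1, the array with the brown adipocyte and muscle fibre signal. On saline replicate 2, Mcat (219.1) and Oxsm (223.9) were below both UAG arrays. The part of saline replicate 1 in the median of the list was not tested. Elovl6, the elongase that turns palmitate into stearate ahead of Scd1, had 1038 and 1039 in UAG WAT and 6899 and 1634 in saline WAT (ratio of means 0.243, log2 difference -1.69, SE 0.629, limma adjusted p = 0.73). Elovl3, also a brown adipocyte marker here, had 188.7 and 99.85, against 1125 and 240.3 with saline (ratio 0.211, log2 difference -1.92, SE 0.726). The acyl-CoA synthetases Acsl3 and Acsl5 had ratios of 0.49 each. These genes were highest on saline replicate 1 too. Of the 40 genes, 7 had a ratio of at most 0.5 (1.95% of all genes) and 0 of at least 2 (0.509%). In muscle 7 of the 8 synthesis genes were lower with UAG (median -0.63), and Elovl6 had 690.9 and 1223, against 2352 and 1726 with saline (ratio 0.469), with no overlap. Acsl5, an acyl-CoA synthetase, was also apart in muscle, at 324.1 and 360.7 with UAG and 778.7 and 585.3 with saline. In liver the synthesis list had a median of -0.10, with 5 of 8 lower. Of the genes that hand electrons to the desaturases, 3 of 5 were higher with UAG in WAT and 2 lower, with a median of 0.10. Cyb5r1, of the cytochrome b5 reductase family, had 458.8 and 405.8 with UAG and 337.3 and 273.9 with saline, without overlap (log2 difference 0.51, SE 0.177, limma adjusted p = 0.71, the lowest of the 7 lists in WAT). Cyb5r3, the main cytochrome b5 reductase, was higher without overlap as well (log2 difference 0.29, SE 0.163), and Cyb5a, the cytochrome b5, had 7265 and 6986 with UAG and 6570 and 6723 with saline. The regulators Srebf1, which drives lipogenic genes, and Rxra, the partner of many nuclear receptors, had log2 differences of -0.43 (SE 0.467) and 0.48 (SE 0.191) in WAT. Srebf1 overlapped, with 1936 and 2491 in UAG WAT and 4907 and 1783 in saline WAT. Both its UAG arrays lay above saline replicate 2 and below saline replicate 1. Rxra did not overlap.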

How the data were processed

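RNA of 3 tissues was hybridized to 12 arrays, a pair for each combination of treatment and tissue. The values deposited by the authors are intensity values on a log2 scale that they had normalized. The methods name quantile normalization and a threshold of 30, the submitters' processing notes name MAS5 with no version, and detection calls were not used here. Base 2 was taken because other bases give intensities beyond a scanner's range. Sorted values of the arrays lay within 0.05 log2 at 97.7% of positions and up to 0.733 at the rest, and the number of arrays limits the precision.

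Intensities below 30 were set to 30, and limma 3.58.1 in R 4.3.3 was fitted with an intensity trend over probe sets with a mean of at least 30, per tissue for UAG against saline (the 4 arrays of the tissue) and over 12 arrays for tissue contrasts and differences of UAG effects, where a mean of at least 30 in 1 tissue was required. The Benjamini-Hochberg adjustment ran over all probe sets of a fit. Beside it stands the 2-fold ratio of arithmetic means from the methods. The 64 control probe sets were left out, and of the rest 932 with several gene symbols and 9160 with none were kept out of gene counts. Groups came from the sample titles. Same-numbered arrays correlated between -0.17 and 0.16 after group means were removed, so the numbers were not used as pairs. The fits were tested on simulated data. Members and lists were chosen with earlier results of these data known. The named genes are all members and, of each pathway list, some or all of the 4 genes with the largest absolute differences in the contrast described. The exception is UAG in WAT, where all 8 genes of fatty acid synthesis are named. The marker genes named one by one were picked from their lists after their values were seen. Alternatives were other floors, filters, normalizations, variance models, probe set summaries, a replicate block and each array left out. Gene functions are general knowledge.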

Additional observations from a re-analysis of the deposited data

Results flagged for a closer look

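For the brightest Fads1 probe set both UAG arrays of WAT were lower than both saline arrays, by 0.15 on the log2 scale (-0.15), and both UAG arrays of liver were higher, by 0.094. The test of the difference itself in the 12-array limma fit gave -0.25 (SE 0.319, adjusted p = 0.999). For the second Fads2 probe set every UAG array lay below saline in WAT (-0.61) and above it in liver (0.027), with a limma difference of -0.63 (SE 0.262, adjusted p = 0.896). Neither difference passed the test.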

How the results depend on the processing

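The tissue calls of the members held under every alternative (for WAT against liver, 185 of 188 values kept direction and side of the threshold and 3 of Scd3 passed it newly: 1.16 without liver saline replicate 1, 1.02 without WAT saline replicate 2, and under the replicate block). With that block 8 members were called in WAT against liver, against 7 without it. No member was called for UAG in any tissue under any alternative, and the adjusted p of Elovl5 in WAT ran over 0.22 to 1. The cause was not tested for any value here. The correlations of same-numbered arrays were low, with 0.161, 0.125 and 0.0775 between the tissues for saline. They cannot tell whether a number is the same mouse in each tissue, so the block was not read as a pairing. With the block 22 probe sets were called for UAG in WAT, 17 in liver and 0 in muscle. Without it there were 0 in WAT, 0 in muscle and 1 in liver. In WAT this count was 30 in the fit to 12 arrays, 6 with a floor of 100 and 9 with no filter. In muscle it was 4 with a floor of 100 and 11 with no filter. In liver it was 3 in the fit to 12 arrays, 2 with a floor of 100, 0 with a mean of at least 100, no filter or no trend, and 0 to 0 on leaving out each array. A floor of 100 called 10530 probe sets in WAT against liver, against 16386, and 11083 in muscle against liver, against 16887; it gave no value for Scd3 in muscle and liver nor for Fads2 in muscle. Members past the 2-fold rule in WAT were 0 with geometric means and 0 to 2 on leaving out each array (1 in all arrays), and in liver 0 to 1.

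Directions turned for small UAG differences. The mean of a gene's probe sets gave 0.0559 for Fads2 in liver, -0.0601 for Fads2 in muscle, 0.105 for Fads1 in WAT, -0.233 for Scd1 in WAT and -0.116 for Fads2 in muscle minus liver. Quantile normalization gave 0.000459 for Elovl1 in liver. For Scd1 in WAT against muscle the mean of probe sets gave 0.623 (limma adjusted p = 0.0269), quantile normalization 0.115 and leaving out each array -0.0798 to 0.0318. Leaving out each array gave, in muscle, -0.105 to 0.596 for Elovl1, -0.666 to 0.137 for Elovl5, -0.187 to 0.62 for Fads1, -0.016 to 0.141 for Fads2, -0.244 to 0.836 for Fads3, -0.661 to 0.0162 for Scd2 and -0.275 to 0.132 for Scd3. In liver it gave -0.178 to 0.171 for Elovl1, -0.189 to 0.00123 for Elovl5, -0.134 to 0.0305 for Fads2 and -0.0165 to 0.526 for Scd2, and in WAT -0.114 to 0.085 for Elovl1 and -0.0836 to 0.14 for Scd1. Muscle minus liver gave -0.572 to 0.23 for Elovl5 and -0.418 to 0.662 for Fads3, WAT minus muscle -1.36 to 0.0874 for Scd2, and muscle against liver -0.259 to 0.526 for Scd3. In WAT, Scd2 was at -0.24 without saline replicate 1 and at -1.68 without saline replicate 2.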

Other observations

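With tissue means removed, the genes whose values ran most like a member's over the 12 arrays were sought among 2022 to 2023 genes of sufficient level and spread. For Elovl5 they were Acsm3 (r = 0.934), Echdc1 (r = 0.93) and Ehhadh (r = 0.916), for Fads1 they were Plac8 (r = 0.94), Aco1 and Pttg1ip, and for Scd2 they were Rpp14 (r = 0.95), Prelid3b and Tmem199. For Elovl1 the order was Galk2 (r = 0.911), Fxyd5 and Sec61a1, and for Scd1 it was Tbl1x (r = 0.872), Dgka (r = 0.823), Urm1, Rnasek and Lsg1. Elovl1 and Scd1 themselves varied less than was asked of the genes searched, with SDs of 0.196 and 0.183 against 0.2. Among the members, the correlations largest in size were those of Scd2 with Scd3 (r = 0.651), Fads2 with Fads3 (r = -0.646), Fads2 with Elovl5 (r = 0.637), Fads1 with Elovl1 (r = 0.632), Fads1 with Elovl5 (r = 0.618) and Scd1 with Scd3 (r = 0.602). These correlations share the arrays and their tissue makeup and are descriptions.

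Other genes of the route also differed between tissues. Fads6, a desaturase of unsettled substrate, was lower in WAT than in liver (log2 difference -4.51, SE 0.131, limma adjusted p = 5.83e-10) and lower in muscle than in liver (log2 difference -3.36, SE 0.131, limma adjusted p = 5.28e-09). Of the dehydratases that act in each round of elongation, Hacd3 was lower in WAT than in liver, at a log2 difference of -2.46, and Hacd1, Hacd2 and Hacd4 were higher in WAT, at 1.41, 1.86 and 2.04, all past the limma threshold. Fasn, the fatty acid synthase, was higher in WAT than in liver by 2.55 (SE 0.197, limma adjusted p = 1.51e-06).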
